A study of Homo sapiens with 7 samples.

Results

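To compare cells that carry the Chuzhoi (Chz) mutant of full-length PTK7 with cells that carry the protein without the mutation, the array titled Chz was set directly against the array titled PTK7. The genes compared were those whose signal was detected (detection p under 0.05, the share of negative control beads at least as bright) on either array. They numbered 12018 of the 20045 genes with a probe on the Illumina HumanHT-12 v4 BeadChip, of which 13589 were detected on at least 1 of the 7 arrays of the chip. Of the 12018 genes, 10255 were detected on both arrays, 1093 on the Chz array alone and 670 on the PTK7 array alone.

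Both lines were made from HT1080, a highly invasive human fibrosarcoma cell line, and the untransfected cells carry little PTK7 of their own. PTK7 cells expressed full-length PTK7 with a FLAG tag at the C-terminus, and Chz cells the same protein with an Ala-Asn-Pro insertion, named after the Chuzhoi mouse, that creates an additional cleavage site for MT1-MMP. The promoter of the constructs and whether the PTK7 and Chz lines are clones or pools are not given in the sources used here. Both lines were grown in DMEM with serum for 72 h and hybridized as 750 ng of labelled cRNA, 1 array per line, so no comparison has a replicate check and no p-value is given. With 1 line for each construct, the mutation and any other difference between the lines cannot be told apart. The other 5 arrays held the cytosolic fragment cPTK7/726-1070, the C-terminal membrane fragment cPTK7/622-1070, the soluble ectodomain sPTK7, a PTK7 knockdown (shPTK7) and control HT1080 cells. They were not a side of the ratios of Chz over PTK7 and serve to show where the Chz and PTK7 values stand. For that, calls were also counted for all 21 pairs of arrays, and differences from the median of the other arrays were taken. These 5 arrays did share in the quantile normalization and in the choice of each gene's probe. In RNA from whole cultures, fewer cells of a kind and less RNA per cell cannot be told apart.

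PTK7 is a membrane pseudokinase, a receptor whose kinase domain has no catalytic activity, with immunoglobulin-like domains outside the cell. It takes part in planar cell polarity, the Wnt pathway branch that orients cells within a sheet and directs their movement. Its ectodomain is cut by the membrane protease MT1-MMP (gene MMP14) and by ADAM proteases, and the remaining membrane stub by γ-secretase.

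Signals are given after background correction and quantile normalization, on a linear scale. A gene was called when its signals differed at least 2-fold and the brighter array detected it. Where the dimmer array did not detect it, that array was set to its lowest detected signal (56.5 on Chz, 60.9 on PTK7), and the ratio is a lower bound, written "at least".

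By this rule 723 genes (6.02%) were called higher in Chz than in PTK7 cells and 528 (4.39%) lower, and 130 and 82 of these ratios were lower bounds. The counts fell to 297 and 222 without background correction and to 295 and 217 with the authors' normalized values, and were 1455 and 267 without normalization between arrays. At least 4-fold differences numbered 82 higher and 78 lower, and at least 8-fold differences 21 and 17. Most genes differed little, with a median absolute log2 ratio of 0.37, and 10th and 90th percentiles of -0.72 and 0.78. Calls that were higher made up 57.8% of the total, a share that fell to 46.2% with scaling to the 75th percentile and read 84.5% without normalization between arrays and 85.4% from raw signals with a floor of 200. These settings moved the median log2 ratio of all genes from -0.01 to -0.14, 0.23 and 0.14, so values below are best read against that median. Among genes lower in Chz cells, those nearest the threshold were PRKAG2, 2-fold lower and called, and LSP1, 1.999-fold lower and not called. Among those higher, they were PAIP1, 2.001-fold higher and called, and TBC1D9, which rounded to 2-fold and was just below it.

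Among the 21 pairs of arrays the Chz and PTK7 pair had the most calls, 1251 or 10.4% of its genes, and the HT1080 and cPTK7/622-1070 pair the fewest, 196 of 12007 or 1.63%. Of the 723 genes called higher in Chz cells, the PTK7 signal lay below all other 5 arrays for 520 (71.9%) and the Chz signal above all of them for 446 (61.7%), against 20.7% and 22.5% of all genes compared. Of the 528 called lower, PTK7 lay above all other 5 arrays for 417 (79.0%) and Chz below them for 296 (56.1%), against 25.1% and 20.9% of all genes. These genes were picked by the difference between these 2 arrays, which by itself raises such shares, so they are a description. Among the called genes, PTK7 lay outside the other 5 in these directions more often than Chz. Against the HT1080 array, 6.77% of genes were called for PTK7 and 4.23% for Chz. A second detected probe was present for 366 of the called genes, and it read in the same direction for 320 (87.4%) and at least 2-fold for 162 (44.3%). The corresponding shares of all genes with such a probe were 69.7% and 11.3%.

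**Figure D1:**
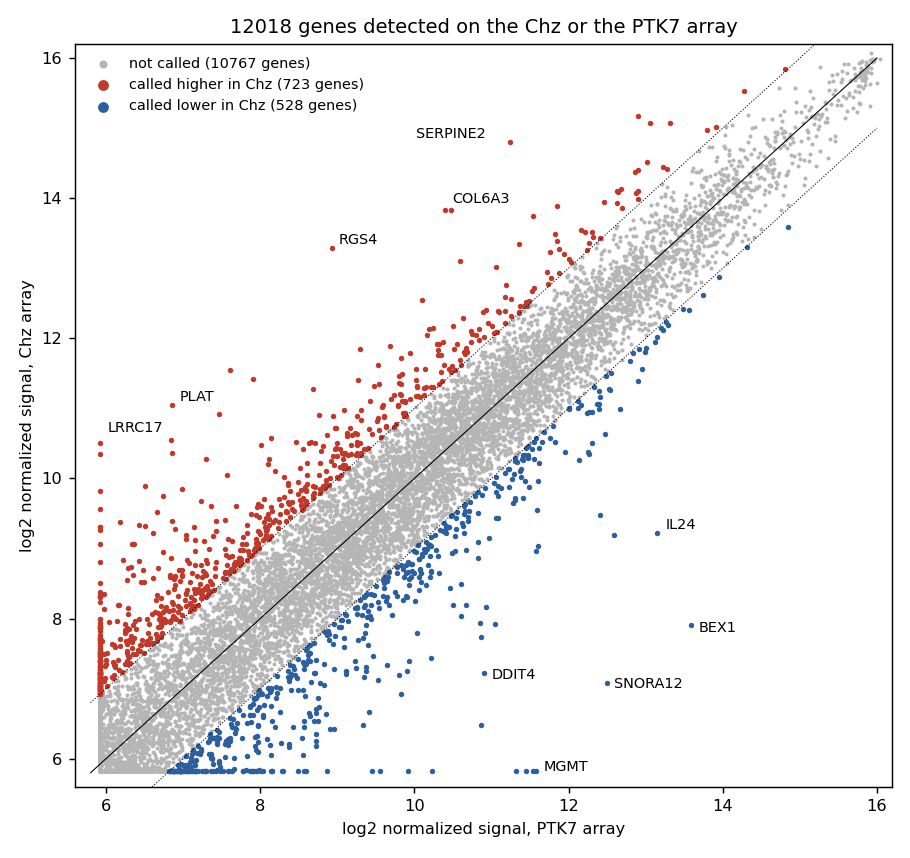
Normalized signal (log2) of the 12018 genes on the PTK7 array (horizontal) and the Chz array (vertical), 1 point a gene, with equal signals on the solid line, 2-fold differences on the dotted lines and genes that 1 array did not detect lined up at the left and lower edges. The 723 genes called higher in Chz cells lie above the upper dotted line and the 528 called lower below the lower one.

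PTK7 itself read 137 in Chz and 112 in PTK7 cells, a 1.22-fold difference that was not called. The other 5 arrays lay between 53.8, the floor for an undetected probe, and 104. A second PTK7 probe was dimmer, at 69.1 in Chz cells, and was not detected in PTK7 cells. Both probes thus lay near the detection limit, and whether they lie inside the tagged construct is not known here. At the protein level, the study's FLAG blots showed the PTK7 and Chz constructs at comparable levels. It reports little Chz at the cell surface, which it attributes to shedding by MT1-MMP.

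In a list of MT1-MMP, ADAM and γ-secretase genes with their relatives and partners, 4 of 20 genes detected were called higher in Chz cells and 0 lower, where 6.02% of all genes were higher. As enzymes that cut PTK7 the study names MT1-MMP, ADAMs including ADAM17, and γ-secretase. It does not name any of the 4 called genes singly. ADAM19, a membrane metalloproteinase-disintegrin, read 8308 in Chz and 2126 in PTK7 cells (3.91-fold). MMP16, the membrane-type relative of MT1-MMP known as MT3-MMP, read 381 and 98 (3.89-fold). For both genes Chz lay above and PTK7 below all other 5 arrays. ADAM9 read 272 and 99.9 (2.73-fold), within and below the other arrays, and ADAM10 458 and 227 (2.02-fold), above and within them. MMP14, which encodes MT1-MMP, was not called, with 236 in Chz, 186 in PTK7 and 122 to 302 on the other arrays. ADAM17, the main shedding protease of many surface proteins, read 869 and 1208, and the γ-secretase subunits NCSTN and PSENEN read 5502 and 500 in Chz against 3512 and 756 in PTK7 cells. MMP15, ADAM12, TIMP3 and TIMP4 were detected on neither array.

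Genes of pericellular proteolysis outside that list held some of the largest differences, with 6 of 18 called higher (33.3%) and 2 lower (11.1%), beside 6.02% and 4.39% of all genes. PLAT, the tissue-type plasminogen activator, read 2127 in Chz and 116 in PTK7 cells (18.3-fold). SERPINE2, a secreted inhibitor of thrombin and plasminogen activators, read 28609 and 2411 (11.9-fold). In both cases Chz lay above and PTK7 below the other 5 arrays, which ranged from 281 to 1083 for PLAT and from 13972 to 18485 for SERPINE2. TFPI, the inhibitor of the tissue factor pathway, read 757 in Chz cells and was not detected on any other array, so it was at least 12.4-fold higher. Its second probe differed 9.32-fold. F3, tissue factor itself, read 736 and 324 (2.27-fold), and the matrix proteoglycan SPOCK1 3559 and 984 (3.62-fold). In the opposite direction MMP9, gelatinase B, read 579 in Chz and 1469 in PTK7 cells (2.54-fold lower), and ADAMTS6 840 and 2724 (3.24-fold lower).

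Genes of the extracellular matrix differed as well. Of 27 genes of collagens and collagen-modifying enzymes, 8 were called higher in Chz cells (29.6%, beside 6.02% of all genes) and 0 lower, and their median log2 ratio was 0.42. COL6A3, a chain of the microfibrillar type VI collagen, read 14577 in Chz and 1348 in PTK7 cells (10.8-fold), with 7968 to 10970 on the other arrays. COL6A2, its partner chain, read 321 and was not detected in PTK7 cells (at least 5.28-fold), and the basement membrane chain COL4A1 read 9601 and 3474 (2.76-fold). Both the type VI chains thus lay above all other arrays in Chz and below them in PTK7 cells. The collagen cross-linking enzymes PLOD2 (11763 and 4741, 2.48-fold) and LOXL1 (477 and 235, 2.03-fold) were also called, while COL7A1 read 432 and 850 and COL5A1 95.7 and 138 without a call.

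Of 34 noncollagen matrix genes, 12 were called higher (35.3%) and 3 lower (8.82%), beside 6.02% and 4.39% of all genes, with a median of 0.51. LAMA4, a laminin chain of vessel and muscle basement membranes, read 632 in Chz cells and was undetected in PTK7 cells, at least 10.4-fold. THBS1, thrombospondin 1, read 14532 and 1423 (10.2-fold) and SPARC, a collagen-binding matricellular protein, 15199 and 3695 (4.11-fold). The other arrays spanned 276 to 9672 for THBS1, so the PTK7 value lay inside their range and the Chz value above it. CCN2 (connective tissue growth factor) read 34429 and 10165 (3.39-fold), and the laminin chains LAMB1 and LAMC1 differed 2.45-fold and 2.19-fold. The 3 genes called lower were BGN (biglycan, 266 in Chz and 837 in PTK7 cells), TNC (tenascin C, 475 and 1093) and FBN2 (fibrillin 2, 365 and 782). Of the genes of hyaluronan and proteoglycans, HAS2, a hyaluronan synthase, read 638 and 91.2 (6.99-fold; its second probe differed 1.43-fold), and both values lay below the other 5 arrays, which read 1069 to 1487.

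Integrins and their cytoplasmic adaptors moved mainly in the same direction, with a median of 0.49. Of 29 genes 7 were called higher (24.1%) and 2 lower (6.9%), beside 6.02% and 4.39% of all genes. ITGA3, a laminin-binding chain, read 15781 and 5649 (2.79-fold). ITGA2, a collagen-binding chain, read 3015 and 1039 (2.90-fold), and ITGAV, the vitronectin-binding chain, 2124 and 774 (2.75-fold). ITGB1, the common beta chain of these receptors, read 32986 and 15390 (2.14-fold), above all other arrays in Chz and below them in PTK7 cells. PARVB and ITGA6 were called too, but their second probes differed 1.02-fold and 1.38-fold. ITGB2, the beta chain of leukocyte integrins, read 1595 in Chz and 5659 in PTK7 cells (3.55-fold lower), and TNS1, tensin 1, 105 and 422 (4.00-fold lower).

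Of 21 genes of cadherins, catenins and cell contacts, 8 were called higher (38.1%) and 2 lower (9.52%), beside 6.02% and 4.39% of all genes. CDH2 (N-cadherin) read 12005 and 4588 (2.62-fold) and the desmosomal cadherin DSG2 5024 and 1591 (3.16-fold). CDH11, one of the proteins the study blotted, read 255 in Chz and was undetected in PTK7 cells (at least 4.19-fold), but the other arrays ran from the floor to 3877. ALCAM, an adhesion molecule of the immunoglobulin family, read 9409 and 3936 (2.39-fold). The connexin GJB2 was undetected in Chz cells and read 123 in PTK7 cells.

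The contractile genes regulated by serum response factor (SRF) had a median of 0.61, with 7 of 25 called higher (28.0%, beside 6.02% of all genes) and 1 lower (4.0%, beside 4.39%). TAGLN (transgelin) read 3676 in Chz and 630 in PTK7 cells (5.84-fold), CALD1 (caldesmon) 8799 and 1543 (5.70-fold) and MYLK (myosin light chain kinase) 4623 and 1448 (3.19-fold). For TAGLN the PTK7 value was below the other 5 arrays (953 to 8643) and the Chz value inside their range. SRF itself read 5008 and 5993, and ACTA2, smooth muscle actin, 1324 and 2451, a difference in the other direction that was not called. MYH10, a nonmuscle myosin heavy chain, was called lower (1043 and 2664, 2.55-fold). Of 31 actin regulators and neuronal-type cytoskeleton genes, 13 were called higher (41.9%) and 2 lower (6.45%). They included DPYSL2 (10415 and 2631, 3.96-fold), the actin-severing protein GSN (416 and 127, 3.28-fold), the filopodial motor MYO10 (3471 and 1270, 2.73-fold) and the formin DIAPH3 (1247 and 541, 2.31-fold). The actin-binding TMSB15A was undetected in Chz cells and read 2796 in PTK7 cells, at least 49.5-fold lower, while its relative TMSB4X was 2.24-fold higher.

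**Figure D2:**
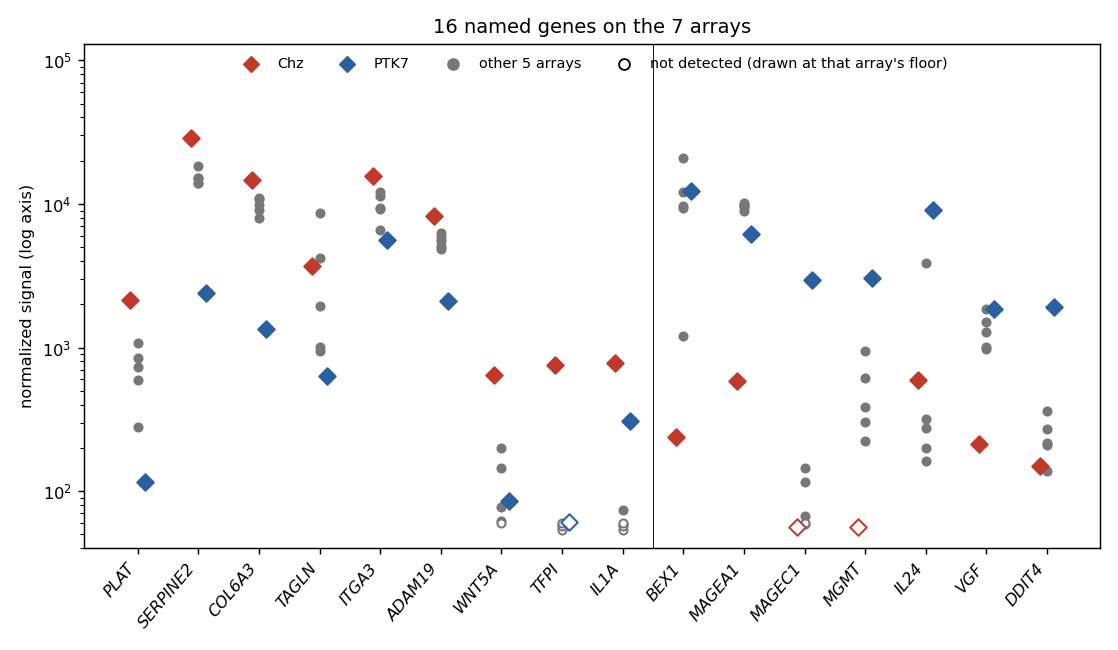
Normalized signal (log axis) of 16 genes on the 7 arrays, with Chz and PTK7 as diamonds, the other 5 arrays as circles and open symbols for arrays that did not detect the gene. PLAT, SERPINE2, COL6A3, ITGA3 and ADAM19 lay above the other arrays in Chz and below them in PTK7 cells, and the 7 genes to the right of the line were lower in Chz cells.

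The study named genes of cell migration from these same arrays, by their difference from HT1080 cells, so their direction here is not independent evidence. The 46 migration genes it named as lower in PTK7 cells had a median log2 ratio of 1.19. Of these, 1, GJB2, was called lower in Chz than in PTK7 cells (2.17%, beside 4.39% of all genes). Another 29 were called higher (63.0%, beside 6.02% of all genes). Besides genes above, they included the receptor S1PR1 for sphingosine 1-phosphate (1504 and 115, 13-fold), the receptor LPAR1 for lysophosphatidic acid (302 and undetected, at least 4.96-fold) and EDN1, endothelin 1 (954 and 90.7, 10.5-fold). Among the 16 not called were NOX4 (1082 and 920), an NADPH oxidase, and MMP3 (281 and 205), stromelysin 1. The other 5 arrays read 1407 to 6582 for NOX4 and 645 to 2188 for MMP3, so both genes were low in Chz as well as in PTK7 cells. Of 30 genes it named as pro-migratory and higher in Chz cells, 28 were matched and detected, with a median of 1.24. Of the 28, 18 were called higher in Chz than in PTK7 cells (64.3%, beside 6.02% of all genes) and 0 lower. WNT5A, a ligand of the polarity pathway, read 647 and 85.8 (7.54-fold) and the small heat shock protein HSPB1 675 and 116 (5.83-fold). IL1A and IL1B, which encode interleukin 1α and 1β, read 787 and 308 (2.55-fold) and 3127 and 1437 (2.18-fold). For IL1A both lines lay above the other 5 arrays, which reached at most 73.7. EGR1, from the same list, read 457 and 624, higher in PTK7 cells, and also above the other 5 arrays on both. Of 4 anti-migratory genes named as higher in PTK7 cells, IL24, CES1 and GAD1 were called lower in Chz cells and EEF1A2 read 5102 and 9863. Of 2 motility inhibitors named as lower in Chz cells, NDRG2 read 73.8 and 331 (4.49-fold lower, with a second probe at 1.16-fold) and FOXA2 128 and undetected, at least 2.10-fold higher.

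Turning to the Wnt and planar cell polarity machinery around PTK7, of 26 receptors and polarity genes, 3 were called higher in Chz cells and 0 lower, a share of 11.5% beside the 6.02% of all genes, and the median was 0.17. FZD8, a Frizzled receptor, read 619 and 119 (5.20-fold), FZD6 829 and 371 (2.24-fold) and VANGL2, a core polarity protein, 145 and undetected (at least 2.39-fold). The other core genes were not called, among them PRICKLE1 (868 and 478), CELSR2 (217 and 126), DVL2 (532 and 649) and SCRIB (2331 and 3004). RYK read 5826 and 4684 and ROR1 62 and 87.6, both without a call. Of the secreted antagonists, DKK1 read 85.6 in Chz and 479 in PTK7 cells (5.59-fold lower), whereas DKK3 read 4487 and 1166 (3.85-fold higher). The 11 Wnt ligands and antagonists had a median of 0.10, whose sign relative to all genes turned in 4 of the alternative settings.

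Receptors and ligands of other pathways followed. Of 35 guidance genes 8 were called higher (22.9%, beside 6.02% of all genes) and 0 lower. They included EFNB2 (ephrin B2, 3853 and 1251, 3.08-fold), EPHB1 (414 and 123, 3.37-fold), SEMA3A (322 and 101, 3.20-fold) and NTNG1 (818 and 151, 5.41-fold). Of 34 genes of the TGF-beta and BMP pathway 8 were called higher (23.5%) and 4 lower (11.8%, beside 4.39% of all genes). TGFBR2, the signaling receptor for TGF-beta, read 10745 and 3676 (2.92-fold) and BMP1, the procollagen C-proteinase, 677 and 187 (3.61-fold). The activin chain INHBE read 85.5 and 499 (5.83-fold lower), and the BMP target genes ID2 and ID3 were 2.32-fold and 2.08-fold lower. The Notch ligand JAG1 read 780 and 165 (4.72-fold), while NOTCH1 (783 and 1603) and the glycosyltransferase LFNG (345 and 1405, with a second probe at 1.33-fold) were 2.05-fold and 4.08-fold lower. RGS4, which switches off G protein signals, had the largest difference among genes higher in Chz cells and detected on both arrays, with 10055 and 487 (20.7-fold). Its relative RGS2 read 177 and 703 (3.97-fold lower). LRRC17 (at least 24.0-fold) and ARAP3 (at least 21.4-fold) led the genes undetected in PTK7 cells.

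**Figure D3:**
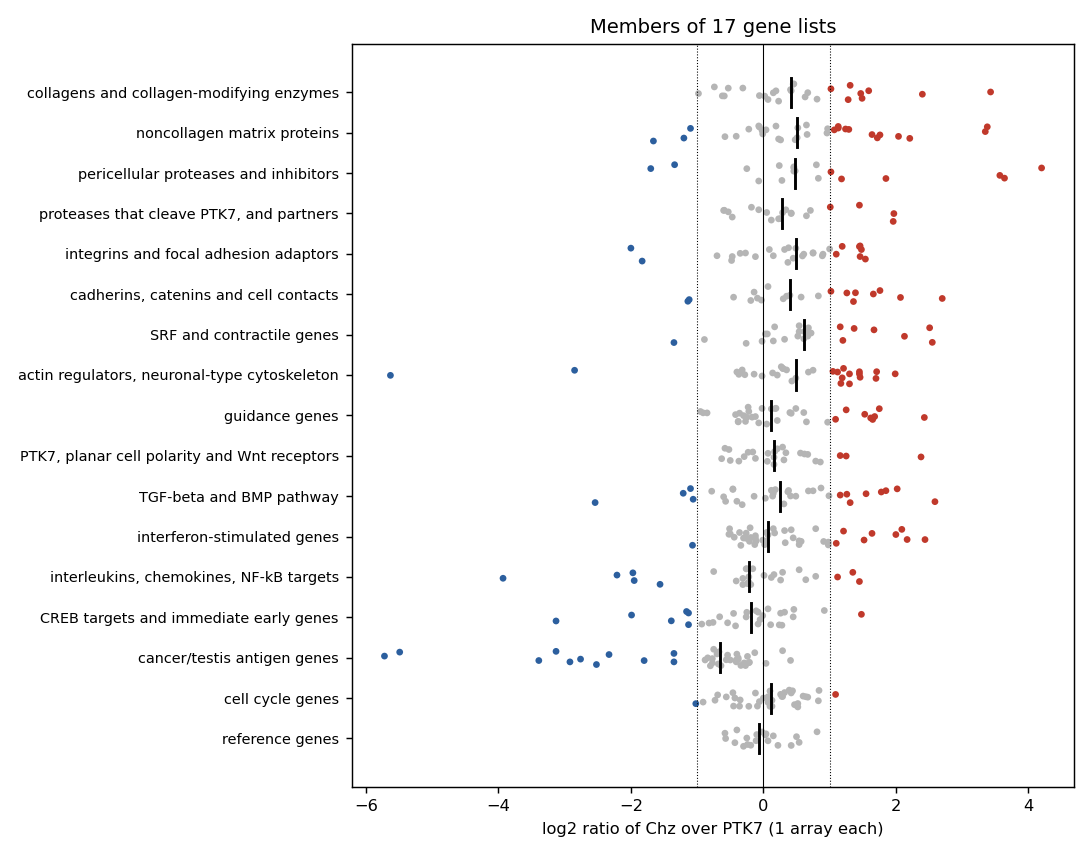
Log2 ratio of Chz over PTK7 for each member (points) of 17 gene lists, 1 array each, with the list's median as a black bar and 2-fold differences as dotted lines and called members in red (higher in Chz) or blue (lower). The medians of the matrix, adhesion and contractile lists lay between 0.40 and 0.61, that of the 20 reference genes at -0.06 and that of the cancer/testis genes at -0.66.

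Of 43 interferon-stimulated genes 8 were called higher in Chz cells (18.6%, beside 6.02% of all genes) and 1 lower (2.33%, beside 4.39%), but the median was 0.07. IFI44 read 1528 in Chz and 282 in PTK7 cells (5.41-fold), IRF9, a subunit of the interferon-activated transcription factor ISGF3, 1901 and 609 (3.12-fold), and IFIT1 742 and 346 (2.14-fold, with a second probe at 1.06-fold). OAS2 read 244 in Chz cells and was undetected in PTK7 cells (at least 4.01-fold). Other members of the list were not called, since IFIT3 read 208 and 205, ISG15 1522 and 2182 and IFI44L 95.6 and 130. HERC5, an ISG15 ligase, was called lower (94.8 and 200, 2.11-fold). The promoters of 3 of these genes are shown because ISGF3 is known to bind the interferon-stimulated response element, whose core was searched as GAAANNGAAA on both strands in the RefSeq promoters of build GRCh38.p14, from 250 bases before to 50 after the start. Capitals mark each match as it stands on the strand printed, the gene's own, and all bases lie before the start.
IFIT1, chr10:89392467-89392569, + strand: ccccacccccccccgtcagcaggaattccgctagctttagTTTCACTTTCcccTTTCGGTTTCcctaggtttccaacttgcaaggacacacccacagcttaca
IFI44, chr1:78649731-78649788, + strand: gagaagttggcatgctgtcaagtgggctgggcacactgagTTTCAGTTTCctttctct
HERC5, chr4:88456954-88457094, + strand: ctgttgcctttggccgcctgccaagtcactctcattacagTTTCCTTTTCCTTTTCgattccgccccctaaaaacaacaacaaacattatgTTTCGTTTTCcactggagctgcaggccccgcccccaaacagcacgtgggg
The core occurred in 3.65% of all 27305 promoters, in 2.88% of those of the genes compared here and in 22 of the 37 listed interferon genes whose promoter was in the table. It stood in 5 of the 6 called higher that had a promoter there, and also in HERC5, which was called lower. A match is a description of letters and not of binding.

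Of 27 genes of interleukins, chemokines and NF-kB targets, 3 were called higher (11.1%) and 5 lower (18.5%), beside 6.02% and 4.39% of all genes. IL24, a cytokine of the interleukin 10 family, read 597 in Chz and 9067 in PTK7 cells (15.2-fold lower), with a second probe in the same direction, and one of the other 5 arrays reached 3887. The chemokine CCL3 read 99.8 and 463 (4.64-fold lower) and IL11 404 and 1192 (2.95-fold lower). IL24 and CCL3 thus differed in the direction opposite to IL1A and IL1B. Of 16 genes of antigen presentation 3 were called higher (18.8%) and 0 lower. These were HLA-B (422 and 171, 2.47-fold), HLA-G (254 and 120) and HLA-DPA1 (239 and undetected), and their near-identical relatives make the assignment of such probes uncertain.

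Targets of the transcription factor CREB and immediate early genes showed 6 of 30 called lower in Chz cells, where 4.39% of all genes were lower, and 1 higher. VGF, a secreted neuropeptide precursor, read 213 in Chz and 1867 in PTK7 cells (8.78-fold lower). ATF3 read 718 and 1605, SIK1 183 and 402 and FOSB 107 and 234, which were 2.24-fold, 2.20-fold and 2.19-fold lower. PTK7 lay above all other 5 arrays for these 4 genes, while Chz lay below them only for VGF. KLF2, a transcription factor, was called higher (17655 and 6333, 2.79-fold). The VGF promoter is shown with the full cyclic AMP response element (TGACGTCA, which reads the same on both strands) in capitals.
VGF, chr7:101165601-101165688, - strand: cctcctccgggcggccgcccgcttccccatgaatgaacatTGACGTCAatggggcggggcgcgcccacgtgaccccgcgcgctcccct
This element occurred in 1.98% of all promoters, in 3.29% of those of the genes compared here and in 3 of the 25 listed CREB and immediate early genes with a promoter. VGF was the only one of the 6 called lower with the full element.

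Stress-induced genes included DDIT4, an inhibitor of the mTOR complex, with 149 in Chz and 1921 in PTK7 cells (12.9-fold lower) and 138 to 360 on the other arrays. DDIT3 read 532 and 1180 (2.22-fold lower) and SESN2 119 and 271 (2.28-fold lower). Their list of ATF4 and unfolded protein response genes had 3 of 28 lower (10.7%, beside 4.39% of all genes) and 1, STC2, higher (3.57%, beside 6.02%). Of the hypoxia-induced and glycolytic genes 4 of 33 (12.1%) were called in each direction, among them CA12 (283 and 78, with a second probe at 1.14-fold) and STC1 (21745 and 7664) higher and ANGPTL4 (108 and 282) lower.

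Cancer/testis antigen genes, which are normally silent outside the germ line and many of which lie on the X chromosome, were called in 1 direction only. Of 40 detected, 11 were called lower in Chz cells and 0 higher, a share of 27.5% beside the 4.39% of all genes, and the median was -0.66, with 37 reading lower and 3 higher. MAGEC1, one of the blotted proteins, was undetected in Chz cells and read 2974 in PTK7 cells (at least 52.7-fold lower), with 59.4, a floor, to 145 on the other arrays. PAGE1 was likewise undetected in Chz cells and read 2543 in PTK7 cells (at least 45.1-fold lower). For both genes PTK7 lay above the other 5 arrays. MAGEA1 in contrast read 585 in Chz and 6135 in PTK7 cells (10.5-fold lower), and all other 5 arrays lay higher still, from 8921 to 10233. VCX, VCX2, VCX3A and VCX3B, whose near-identical copies can share probes, were 8.74-fold, 3.47-fold, 6.79-fold and 7.55-fold lower. MAGEB2 (7342 and 5528) and MAGEA12 (3355 and 2751) read higher in Chz cells without a call. Also among the genes that led those lower in Chz cells were MGMT, which repairs alkylated guanine in DNA, and BEX1 of the brain-expressed X-linked family. MGMT was undetected in Chz cells and read 3054 in PTK7 cells and 224 to 939 on the others (at least 54.1-fold lower). BEX1 read 240 and 12317 (51.3-fold lower), and its second probe differed 2.39-fold.

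Of the other proteins the study blotted, SPP1 (osteopontin) read 340 in Chz and 298 in PTK7 cells, and PDPN (podoplanin) was undetected in Chz and read 106 in PTK7 cells. Neither was called.

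Small nuclear and nucleolar RNAs, a group chosen after their values were seen, were called lower in Chz than in PTK7 cells more often than the 4.39% of all genes. They guide splicing and the processing and chemical modification of other RNAs, and most lack a poly(A) tail. Of 13 small nuclear RNAs (snRNAs) 9 were called lower and 0 higher (69.2%, median -1.44), of 15 Cajal body RNAs (scaRNAs) 9 and 0 (60.0%, median -1.73) and of 148 small nucleolar RNAs (snoRNAs) 26 and 1 (17.6%, median -0.47, with 31 reading higher). SNORA12 read 136 in Chz and 5795 in PTK7 cells (42.6-fold lower), with 129 to 464 on the other arrays. RNU4-2, a U4 snRNA gene, read 144 and 652 (4.52-fold lower), with 95.4 to 190 on the others. SNORD3A, a copy of the U3 RNA, read 1225 and 4508 (3.68-fold lower), with 1041 to 1415 on the others. The values of these genes thus stood out on the PTK7 array and not on the Chz array. Against the median of the other 5 arrays, the PTK7 array read 1.29 higher over the snRNAs, 1.28 over the scaRNAs and 0.41 over the snoRNAs (medians on the log2 scale), and the Chz array 0.17, -0.07 and -0.02. PTK7 lay above all other 5 arrays for 12 of 13, 13 of 15 and 90 of 148 genes, against 25.1% of all genes. Chz lay below all other 5 arrays for 2, 5 and 26 of them, against 20.9% of all genes. The medians of all 3 classes stayed below that of all genes in every alternative setting. Copies of U1, U3 and U4 genes are near-identical and can share probes. Over the 11247 protein-coding genes 702 (6.24%) were called higher and 451 lower.

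**Figure D4:**
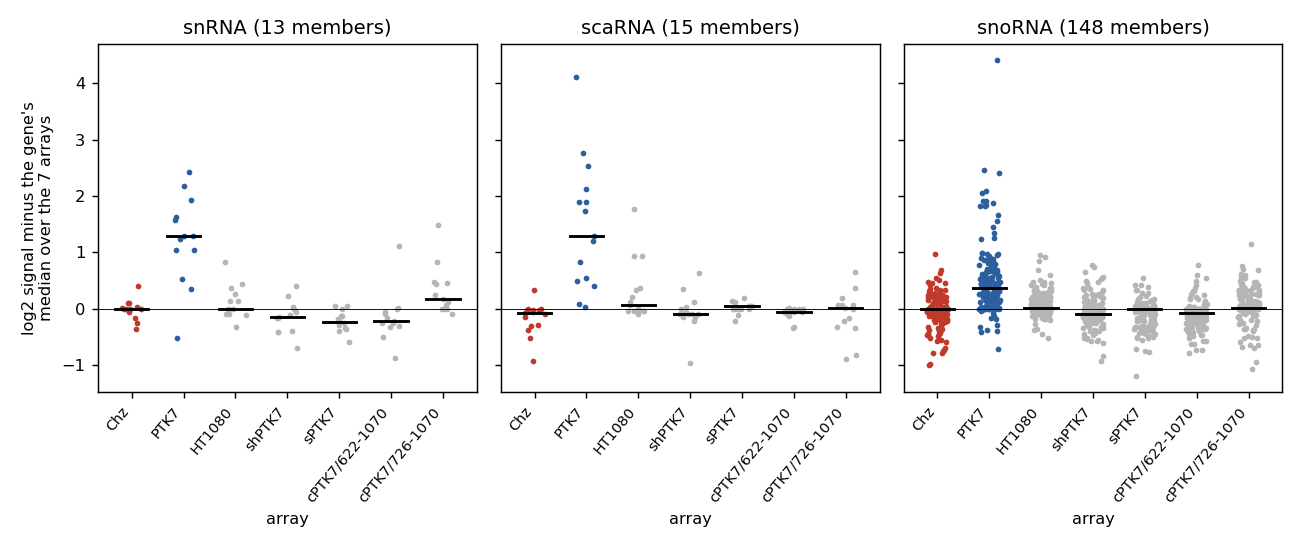
Log2 signal of each snRNA, scaRNA and snoRNA gene minus its median over the 7 arrays (points), by array, with the median of each class as a black bar. The PTK7 points lie mostly above 0 in all 3 classes. The Chz points of the snRNAs and snoRNAs lie around 0, and those of the scaRNAs mostly below it.

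Ratios were also alike among neighbouring genes, a pattern noticed after the values were seen. Over all genes, 6.02% were called higher in Chz cells and 4.39% lower. On chromosome 18, 39 of 166 genes (23.5%) were called higher and 1 (0.602%) lower, with a median log2 ratio of 0.45. On chromosome 8, 66 of 440 (15.0%) were called higher and 13 (2.95%) lower. On chromosome 10 in contrast 18 of 467 genes (3.85%) were called higher and 57 (12.2%) lower, with a median of -0.26. On chromosome 19, 20 of 794 (2.52%) were called higher and 56 (7.05%) lower, with a median of -0.24. Relative to all genes, the medians of these 4 chromosomes kept their sign in every alternative setting. Probes that did not set these ratios had medians of 0.34 on chromosome 18, 0.15 on chromosome 8, -0.17 on chromosome 10 and -0.23 on chromosome 19. Within a chromosome, runs were taken as at least 20 genes in a row whose running median over 41 neighbours was 0.35 or more in size. There were 24 such runs, with 1132 genes, 9.42% of all, and they held 170 (23.5%) of the genes called higher and 75 (14.2%) of those called lower. Since the runs were picked by these ratios, their medians are a description.

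The longest run was the first 151 detected genes of chromosome 8, from RPL23AP53 to FNTA. There 46 genes (30.5%) were called higher and 3 (1.99%) lower, beside 6.02% and 4.39% of all genes. In this run 82.1% read higher in Chz cells and the median was 0.67. Against the other 5 arrays PTK7 read -0.60 over this run (median, log2 scale) and Chz 0.02, and 32 of 48 other probes of its genes read higher in Chz cells, with a median of 0.34. PLAT, CTSB, ADAM9, NRG1, PBK, BMP1, DPYSL2, STC1 and TNFRSF10B lie in this run, the last with a second probe at 1.04-fold. Relative to the 41 genes around each, PLAT kept a log2 ratio of 3.70, DPYSL2 1.27 and BMP1 1.11, while ADAM9 read 0.78, NRG1 0.48, CTSB 0.41, PBK 0.38 and TNFRSF10B 0.32, all under the 2-fold threshold. The first 78 genes of chromosome 18, from ROCK1P1 to MAPRE2, had 24 higher (30.8%) and 1 lower (1.28%) and a median of 0.53. Against the others PTK7 stood at -0.38 and Chz at 0.20, and the other 5 arrays themselves spanned -0.24 to 0.19. DSG2, DSC2 and CDH2 lie there, and relative to their neighbours DSG2 read 1.17 and CDH2 0.91. On chromosome 10 the 83 genes from FRAT1 to SMNDC1 had 2 higher (2.41%) and 18 lower (21.7%) and a median of -0.53. There PTK7 stood at 0.51 and Chz at -0.08. MGMT, in the run from PLPP4 to FRG2B, kept -5.21 relative to its neighbours. The run of 42 genes on chromosome 20 from SMOX to DTD1, with a median of 0.45, had Chz at 0.45 and PTK7 at 0.08, and there HT1080 (0.52) and sPTK7 (0.40) read like Chz and the remaining 3 arrays from -0.35 to -0.11.

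**Figure D5:**
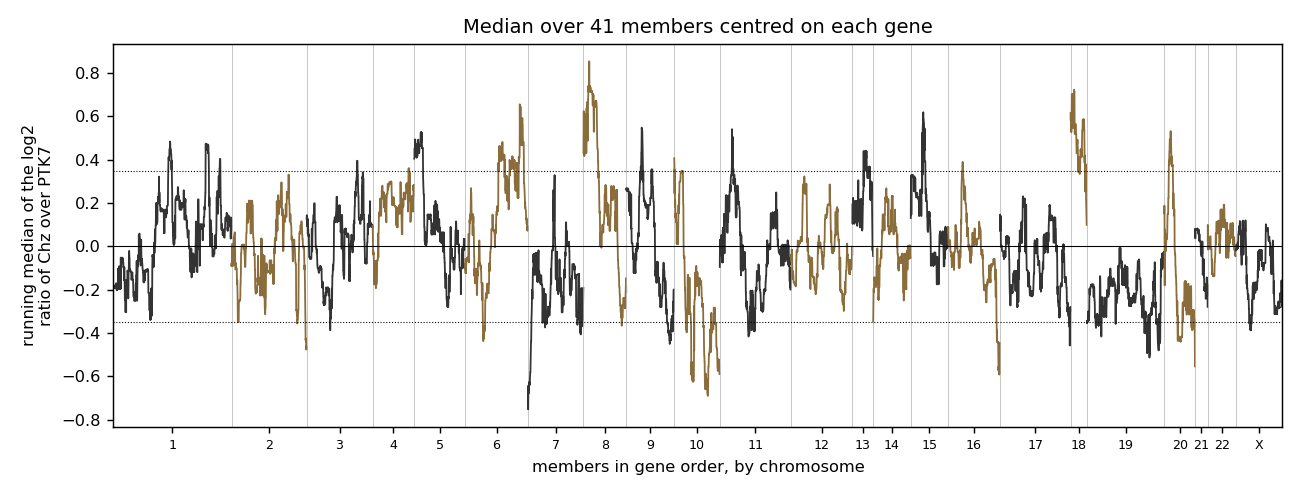
Running median of the log2 ratio of Chz over PTK7 over 41 detected genes centred on each gene (vertical), with the genes in order along chromosomes 1 to 22 and X (horizontal) and dotted lines at 0.35 and -0.35. The start of chromosomes 8 and 18 lies above the upper line and much of the later part of chromosome 10 below the lower one.

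Measured relative to the 41 genes centred on each, 580 of the 12018 genes were called higher and 437 lower, and 483 and 358 of these were among the genes called above. Of the lists, the 46 migration genes named as lower in PTK7 cells had 21 called higher and 1 lower. The 31 actin regulators had 7 and 2, and the 21 genes of cadherins and cell contacts 5 and 2. The list of 20 MT1-MMP, ADAM and γ-secretase genes had 2 and 0, and the 27 collagen genes 8 and 0. The 34 noncollagen matrix genes had 12 and 3, and the 25 contractile genes 6 and 1. The 40 cancer/testis genes kept all 11 called lower, with a median of -0.37.

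As a check of the cells, the mesenchymal marker VIM (vimentin) read 56199 in Chz and 45678 in PTK7 cells. Of 11 fibrosarcoma and mesenchymal markers detected, ZEB2 and CDH2 were called higher and 0 lower, 9 read higher and 2 lower, and the median log2 ratio was 0.59. Of 19 epithelial marker genes on the array 14 were detected on neither array, and the 5 detected, led by the keratin KRT8 (2152 and 2565), held no call. All 5 read lower in Chz cells, with a median of -0.25. Of 9 leukocyte markers detected CD3D, LYZ and CSF1R were called lower, at no more than 388 in PTK7 cells, while CD68 read 9112 and 4611, and 9 were detected on neither array. Of 13 endothelial markers 8 were detected on neither array, and TIE1 (401 and 1024) was called lower. The part of such genes in the other differences was not tested. The 20 reference genes ranged from -0.58 to 0.81 with no call, among them ACTB (57325 and 55985) and GAPDH (47286 and 53971). Of 38 cell cycle genes 1 (PBK) was called higher and 1 (KIF2C, 1409 and 2853) lower.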

How the data were processed

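The deposited non-normalized intensity of each probe and its detection p-value, both as exported per the file headers, were read for 7 arrays of 1 chip; the authors' normalized intensity table (GeneSpring GX, per the study's methods) served as an alternative. Background was corrected and arrays quantile-normalized with limma 3.58.1 (neqc, offset 16) in R 4.3.3, and values were log2-transformed. Probes took gene names from the platform annotation, updated to RefSeq symbols by gene ID: of 47230 probes, 30112 had 1 gene, 8 several and 17110 none listed. The brightest probe over the 7 arrays stood for its gene. The arrays each detected 19045 to 20515 probes, and bead counts and errors were not used here. With 1 array a side no test was possible, including the Welch test named in the study's methods, so differences cover no replicate error. The steps were tested on simulated data.

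Genes named are PTK7, the members of the protease list, the 12 largest calls in each direction, the 6 largest detected on both arrays, up to 6 called per direction in each of 47 lists, and the genes the study named or blotted; list members not called are given by value. Members and lists were chosen with earlier results of these data known. Alternatives changed the background correction, scaling, floor, detection limit, probe rule, offset and fold. Genes on the arrays but not matched to a probe in the tables used were not analysed here.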

Additional observations from a re-analysis of the deposited data

How the results depend on the processing

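Without background correction 297 genes were called higher and 222 lower, and with the authors' own normalized values 295 were higher and 217 lower. Scaling to the 75th percentile gave 625 and 727, or 46.2% higher. Without normalization between arrays 1455 and 267 were called (84.5% higher), and from raw signals with a floor of 200, 646 and 110 (85.4%). A 1.5-fold threshold gave 1863 and 1789, and a 3-fold one 180 and 142. The other settings (quantile normalization of both arrays alone, no floor, detection p under 0.01, any probe, mean of detected probes, offset of 50) and the ratio relative to 41 neighbours, chosen after seeing the data, stayed within 1.5 times the main counts; the cause of the larger shifts was not tested. Of 246 named genes called, 131 were called under all 11 alternatives that keep the fold, and none turned direction in any of them. Relative to neighbours 204 of the 246 stayed called. No paired analysis was possible because each line has 1 array. Where 1 array is near background, its ratio is a bound or is damped by the offset.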

Other observations

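The gene groups outside the comparisons above are given by their counts, beside shares of 6.02% called higher and 4.39% called lower over all genes. Of 22 S100 and annexin genes 3 annexins, which bind membranes in the presence of calcium, were called higher in Chz cells and 0 genes lower: ANXA3 read 2562 and 713 (3.59-fold) and ANXA1 32084 and 14207 (2.26-fold). ALDH1A3, an enzyme of retinoic acid synthesis, read 318 in Chz cells and was undetected in PTK7 cells (at least 5.23-fold), and its second probe differed 7.82-fold. ARMCX2, of a gene family beside the BEX genes, was likewise undetected in PTK7 cells and read 635 in Chz cells (at least 10.4-fold). TNFRSF19, a Wnt/beta-catenin target, read 414 and 89.5 (4.63-fold), while the other 2 called targets of that list, DKK1 and FGF18, were lower. Of the heat shock proteins HSPB8 was undetected in Chz and read 388 in PTK7 cells, opposite to HSPB1. Of 28 cholesterol and fatty acid synthesis genes MSMO1 was called higher (7457 and 3492) and FADS2 lower (65.5 and 227). Of 24 p53 targets TNFRSF10B was called higher and SESN2 lower, of 21 YAP/TEAD targets CCN2 and F3 higher and NUAK2 lower, of 23 ERK output genes 0 higher and MYEOV and IL11 lower, of 27 homeobox genes 0 higher and HOXD11 lower, and of 31 ribosomal protein genes RPL28 higher. LRIG1 and NRG1 of the EGF family genes were called higher. None of 26 antioxidant genes and of 15 histone genes was called.

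Of the 17110 probes with no gene listed, 5517 were detected on either array, 171 of them higher and 256 lower in Chz cells by the same rule. Of 4 equal groups of genes by mean log2 signal on both arrays, from dimmest to brightest, 9.55%, 16.1%, 10.2% and 5.76% were called.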
